A study of Mus musculus with 4 samples.

Results

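Natural killer (NK) cells of adipose tissue (AT) were taken from single-cell RNA-sequencing libraries of mice with or without Tert in the Tie2e lineage. They were chosen by measured values. A barcode, the droplet label standing for 1 cell, was kept where it held 200 genes or more and mitochondrial transcripts made up no more than 25% of its counts. It was counted as an NK cell with at least 2 unique molecular identifiers (UMIs, each standing for 1 captured transcript) of Ncr1, Klrb1c, Klre1 and Klra8 together. It also had at most 1 UMI of Cd3e, Cd3d and Cd3g, 0 of Trac, 0 of Cd79a and at most 2 of C1qa, C1qb and C1qc. Of 4927 barcodes in the files 4136 were kept, and 105 of these met the rule. They held 975886 UMIs between them.

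The libraries came from WT mice (Tie2e-cre, TERT+/+, mTmG) and KO mice (Tie2e-cre, TERTfl/fl, mTmG). All were 7 months old and had been on high-fat diet for 5 months, and the study describes them as male. Both genotypes therefore carried the Cre driver and the mTmG reporter, which switches from membrane tdTomato to membrane GFP where Cre has acted. Each genotype gave 1 library of subcutaneous (SC) and 1 of intraperitoneal (IP) AT, so each group was 1 sample and no difference had a replicate check. How many mice went into a library is not given in the sources used here. The Tie2 promoter is known to be active in part of the blood lineage as well as in endothelium, so a Tie2-driven deletion cannot be assumed to spare NK cells.

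NK cells are innate lymphocytes that kill stressed or infected cells by releasing granules of perforin, which opens the target membrane, and granzymes, the proteases that enter through it. Germline-encoded receptors set their threshold: activating receptors such as NKp46 (Ncr1) and NKG2D (Klrk1) pair with adaptors such as DAP12 (Tyrobp), and inhibitory receptors of the Ly49 (Klra) and NKG2A (Klrc1) families read MHC class I. In AT, NK cells and the related type 1 innate lymphoid cells (ILC1) are known sources of interferon gamma in obesity, and the 2 kinds share most receptors, with Eomes and granzymes usually assigned to NK cells and Cxcr6, Il7r and Tmem176b to ILC1.

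The 4 genes of the rule lie apart in the genome. Ncr1 spans chr7:4337724-4345164 on the plus strand of GRCm38. Klrb1c (chr6:128778485-128789215, minus), Klre1 (chr6:129577905-129585827, plus) and Klra8 (chr6:130115226-130129898, minus) sit in the NK gene complex, where 16 of the Klr genes placed here fell within 1.778 Mb of chromosome 6. Klrg1 (chr6:122270596-122282882, minus) lies outside that stretch. Gzma, granzyme A, which the rule did not use and which is used below to divide the cells, lies at chr13:113093825-113100981 on the minus strand.

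A pair of RefSeq promoter stretches are shown because Ncr1 chose the cells and Gzma split them (GRCm38.p6, 30 bases each, 5′ to 3′ on the gene's strand). Capitals mark ACCACA, the reverse complement of TGTGGT, the letters at the centre of the RUNX motif.
Ncr1, chr7:4337662-4337691: caggcctcacccACCACAtcctgtgcatct
Gzma, chr13:113101014-113101043: gagaagaacaaaACCACAtcctttgcactc
The capitals lay 41 bases before 1 of the listed starts of Ncr1 and 50 bases before that of Gzma. TGTGGT or ACCACA was found on either strand in 14.0% of 32851 RefSeq promoter windows of 250 bases. Both genes also shared the 4 letters that follow. The resulting run of 10 letters, picked after the sequences had been read, was found on either strand in 20 windows of the 32851 (0.0609%).

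The same 6 letters also stood before the killing genes and before Cxcr6, shown for the contrast described further on.
Prf1, chr10:61297694-61297723: tgggaacctgtgACCACActctgggggcag
Gzmb, chr14:56262351-56262380: tgtgggttctgcTGTGGTtacttcatgatt
Cxcr6, chr9:123806447-123806476: agtatttgacggaaacacagACCACAtcac
Klrb1c, chr6:128788713-128788742: aggaaggaaagcTGTGGTcatggtgttttg
No match lay in the 250-base windows of Klra8 or Eomes, nor does a match in the others show a bound site.

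NK cells were scarcer in the KO library of both depots, and commoner in IP than in SC AT of both genotypes. They were 21 of 971 kept barcodes in WT SC AT, 2.16% (exact binomial 95% interval 1.34 to 3.29). In KO SC AT they were 12 of 1969, 0.609% (0.315 to 1.06). Of IP AT they were 58 of 675 WT barcodes, 8.59% (6.59 to 11), and 14 of 521 KO barcodes, 2.69% (1.48 to 4.47). Within a depot the intervals of WT and KO did not overlap, and KO SC AT was the lowest of the 4 libraries. Here and below, intervals cover counting error only and say nothing of the spread between mice.

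**Figure D1:**
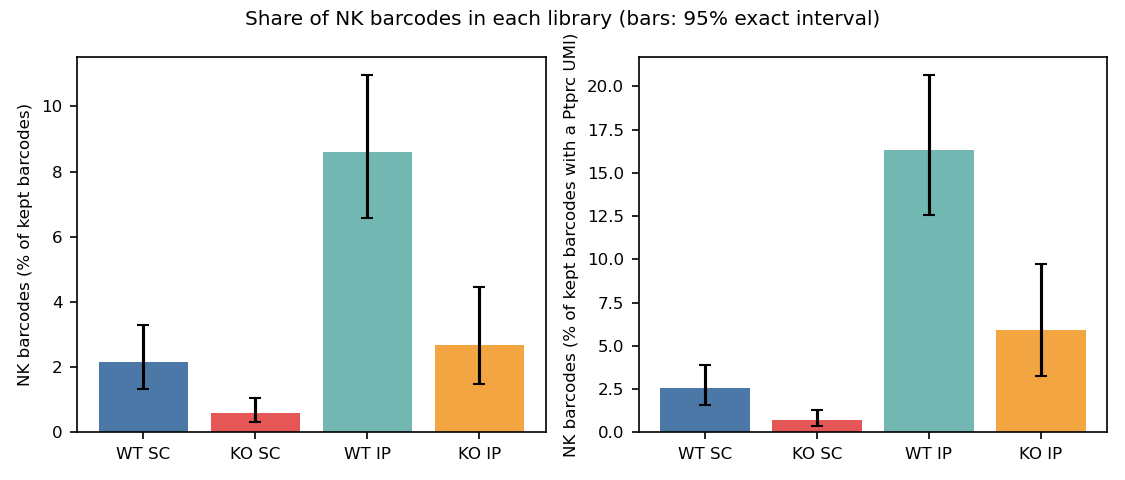
Share of barcodes that met the NK rule in each of the 4 libraries (bars, 1 library each) with exact binomial 95% intervals (black lines), in percent of kept barcodes on the left and of kept barcodes with a Ptprc UMI on the right. In both panels KO lies below WT within each depot, at 0.609% against 2.16% of kept barcodes in SC AT and 2.69% against 8.59% in IP AT.

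The KO share was 3.55-fold lower in SC AT (log2 ratio -1.83, 95% counting interval -2.84 to -0.81) and 3.2-fold lower in IP AT (-1.68, -2.50 to -0.85). IP exceeded SC 3.97-fold in WT mice (log2 ratio 1.99, 1.28 to 2.70) and 4.41-fold in KO mice (2.14, 1.04 to 3.24). With barcodes holding Ptprc (CD45, the pan-leukocyte marker) as the denominator, the shares were 2.57%, 0.740%, 16.3% and 5.91% in WT SC, KO SC, WT IP and KO IP AT. Per 100 T cells (barcodes with at least 2 Cd3 UMIs) there were 4.99, 1.10, 59.8 and 15.9 NK cells in the same order. The order of the libraries was thus the same by each denominator. These are shares of what was captured, and fewer NK cells and more of other cells in a library cannot be told apart.

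The 4 libraries were comparable in depth within the NK cells. The median was 8517 UMIs per NK cell in WT and 7822.5 in KO SC AT, and 7923 and 7235.5 in WT and KO IP AT, and the median number of genes lay between 2512 and 2656. Their mitochondrial share had medians of 2.05% to 2.61%. Over all kept barcodes the depths were less even, with medians of 6722 UMIs in KO SC and 13054 in WT IP AT.

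Some barcodes stood apart. The cell barcode sequences of KO SC and WT IP AT overlapped in 93 cases, of 95 over all pairs of libraries. No barcode was an NK cell in both. 1 NK cell of WT IP AT (31110 UMIs) had the same barcode as a KO SC droplet of 620 UMIs with 0 UMIs of the rule genes. Doublets were sought with Scrublet, which marked 23 of the 4136 kept barcodes (0.556%) and no NK cell. It did not mark 6 NK cells that held at least 50 UMIs of stromal, endothelial, mesothelial, haemoglobin or B cell markers, called mixed barcodes below (1 WT and 2 KO cells of SC AT, 2 WT and 1 KO cells of IP AT).

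The mixed barcodes differed in kind. That of WT SC AT was 92.2% haemoglobin among 22032 UMIs. In KO SC AT 1 carried 705 stromal UMIs, 214 of them of Dcn, and the other 73 UMIs of the B cell list. The latter also held 1 Cd3 UMI and 26 UMIs of a gamma delta T cell list, 83.9% of that list's UMIs in KO SC AT. Both of WT IP AT held endothelial UMIs (130 and 82) with 0 UMIs of Ptprc and 0 of 18 further NK genes, so of the rule genes and these 18 genes they held Klrb1c alone, at 2 and 3 UMIs. That of KO IP AT held 825 UMIs of the B cell list, 529 of them of Cd74. It also held 43 UMIs of a dendritic cell list, 70.5% of that list's UMIs in KO IP AT, 3 UMIs of Klre1 and 1 of Ptprc. Which cell type it was mixed with was not settled. In KO SC AT the mixed barcodes held 22194 and 10853 of the 105481 UMIs of the NK cells. Several results that rest on mixed barcodes are given with and without them.

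The label was checked against markers that the rule had not used, and it held in part. A list of 18 such NK genes gave UMIs in 21 of 21, 12 of 12, 56 of 58 and 14 of 14 cells of WT SC, KO SC, WT IP and KO IP AT. Its summed level was 14655, 9044, 11763 and 11986 CPM, the UMIs of a gene scaled to all UMIs of the NK cells of that library in that order. Il22, Il23r, Il17a and Il17f, which mark ILC3 and related T cells, and Il1rl1, Il5, Il13, Il4 and Il17rb, which mark ILC2, all had 0 UMIs. Other genes of the ILC2 and ILC3 lists did have UMIs. In WT SC, KO SC, WT IP and KO IP AT the 13 ILC2 genes summed to 739, 465, 539 and 933 CPM. The 9 ILC3 genes summed to 40.2, 114, 21.3 and 18.3 CPM. At least 20 ILC2 UMIs were seen in 6 of 105 cells. Of the markers given with the label, Eomes was seen in 33 of 105 cells, and 42 of 105 had 0 Eomes and under 5 Gzma UMIs. At least 10 UMIs of the ILC1 list with under 5 of Gzma were found in 39 cells, so the members are called NK cells by the rule and may include ILC1. The markers of T cells summed to 639 to 805 CPM per library, mostly as Trbc1 and Trbc2 transcripts, which were seen in 72 and 53 of the 105 cells. The rule itself had kept Cd3 low and Trac at 0, so that sum is not independent of it.

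The cut was not sharp at its lower edge. With the other conditions met, 21 barcodes had 1 UMI of the rule genes and were left out. Their median count of the 18 NK genes was 3 (range 0 to 61), and 0 of 21 held Gzma. The 4 members with exactly 2 rule UMIs had a median of 35.5 (0 to 62) and the 6 with 3 had 19.5 (0 to 32). Of 200 kept barcodes with at least 2 rule UMIs, 89 failed on Cd3, 74 on Trac and 1 on Cd79a, with overlap, and none on the C1q genes.

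The rule genes themselves are given as a description. Ncr1 stood at 347, 142, 363 and 466 CPM in WT SC, KO SC, WT IP and KO IP AT. Klrb1c (NK1.1) stood at 256, 152, 290 and 430 CPM, Klre1 at 493, 531, 594 and 631 CPM, and Klra8 (Ly49H) at 116, 531, 181 and 375 CPM. Klre1 was the most even of these, and Klra8 came from few cells: 3, 6, 12 and 4 in that order. The 31-base stretches of the transcript ends of Klra8 were shared with other Ly49 genes in 52.2% of cases, so its reads and those of Klra9, Klra3 and a pseudogene cannot be told apart with certainty. For Ncr1, Klre1 and Gzma the figure was 0%.

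Tert, the gene floxed in KO mice (chr13:73626911-73649843, plus strand), gave 0 UMIs in every group of NK cells. Over the 975886 UMIs this allows up to 3.07 CPM, taking 3 counts as the limit of a count of 0. The limits per library were 15.1, 28.4, 5.34 and 27.4 CPM in WT SC, KO SC, WT IP and KO IP AT. Deletion in the NK cells could not be checked at this depth, in WT or in KO.

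The reporter was active in some NK cells of each library. At least 5 UMIs of the GFP coding sequence were seen in 9 of 21 NK cells of WT SC AT (42.9%, 21.8 to 66.0) and 2 of 12 of KO SC AT (16.7%, 2.09 to 48.4). In IP AT they were seen in 28 of 58 WT cells (48.3%, 35.0 to 61.8) and 5 of 14 KO cells (35.7%, 12.8 to 64.9). The intervals of WT and KO overlapped in both depots. tdTomato, the state before Cre, was captured thinly, with 23 UMIs in 17 cells, and 3 cells had UMIs of both. GFP was also seen in T cells, at 5 or more UMIs in 255 of 421, 386 of 1094, 63 of 97 and 28 of 88 of WT SC, KO SC, WT IP and KO IP AT, so the label was not particular to NK cells.

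Against the other kept barcodes, the receptors and the killing genes led. These contrasts use the cells that the rule chose and are not tests. Gzma had a mean of 4880 CPM over the 4 libraries against 30.8 CPM in other barcodes, 158-fold. Klra4 (Ly49D, an activating receptor) was at 512 CPM, 249-fold, and Klri2 at 180 CPM, 163-fold. Xcl1, a chemokine that recruits dendritic cells, was at 786 CPM, 57.7-fold, and Prf1 (perforin) at 368 CPM, 47.9-fold.

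NK cells were next set against T, CD8 T and B cells, gated with 0 UMIs of the rule genes. That gate left out T cells that carry rule genes. The 89 barcodes with at least 2 rule UMIs that failed the NK rule on Cd3 were in neither group. Low shares of killing genes in the CD8 T cells below can therefore be partly set by the gate. Gzma was seen in 61 of 105 NK cells (58.1%), in 5 of 724 CD8 T cells and in 1 of 797 B cells (0.13%), which should lack it and so give a background of free RNA. The median depths were 7892, 9522 and 5356 UMIs. The B cells numbered 297, 456, 21 and 23 in WT SC, KO SC, WT IP and KO IP AT, and those with a rule gene UMI had been left out. Their background is therefore mostly that of SC AT and may be too low. The highest share of CD8 T cells with Gzma in a library was 2 of 18 (11.1%), in KO IP AT. Prf1 was seen in 59.0% of NK and 14.0% of CD8 T cells, with 41.7% to 76.2% and 10.7% to 24.2% in single libraries. The B cell share was 0.13% for Prf1 as well. Most T cells came from SC and most NK cells from IP AT, so other genes are given by library in the order WT SC, KO SC, WT IP, KO IP. Tbx21 (T-bet) was seen in 81.0%, 58.3%, 87.9% and 78.6% of NK cells, in 15.0%, 5.76%, 45.5% and 66.7% of CD8 T cells and in 2.51% of all B cells. Nkg7, a granule membrane protein, was at 1891, 1318, 2070 and 1353 CPM in NK cells and at 412, 283, 924 and 745 CPM in CD8 T cells. Ccl5, a chemokine of killer cells, was at 14967, 8978, 9593 and 7844 CPM in NK and at 481, 349, 3114 and 4074 CPM in CD8 T cells. NK cells were the higher in each library, and the CD8 T cells of IP AT came nearer to them than those of SC AT did. The IP CD8 T cells numbered 33 in WT and 18 in KO.

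Gzma divided the NK cells. It was at 0 UMIs in 44 cells, at 1 to 4 in 7 and at 5 or more in 54. In cells with at least 5 it was abundant, and per library it summed to 6855, 2816, 4639 and 5211 CPM in WT SC, KO SC, WT IP and KO IP AT. The share with at least 5 UMIs was 61.9% (38.4 to 81.9), 58.3% (27.7 to 84.8), 50% (36.6 to 63.4) and 35.7% (12.8 to 64.9) in the same order. All 4 intervals overlapped. Thinned to 2000 UMIs per cell, which left out no cell, Gzma was seen in 66.7%, 66.7%, 50% and 35.7% of cells.

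**Figure D2:**
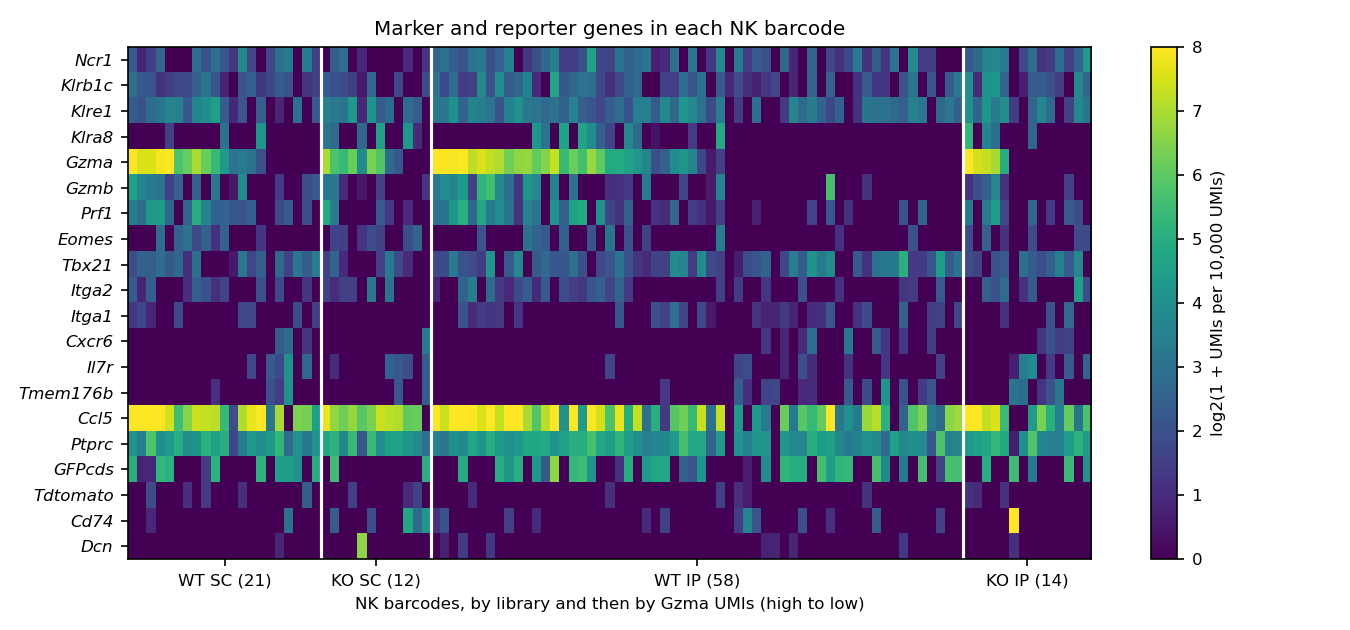
Level of selected genes (rows) in each of the 105 NK cells (columns, grouped by library and ordered by Gzma), as UMIs scaled to the depth of the cell on a log2 colour scale. Gzma was at 5 or more UMIs in 54 cells and at 0 in 44, and Cxcr6 and Gzma shared no cell.

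Cxcr6, Il7r and Tmem176b, usually assigned to ILC1, lay mostly on the other side of this divide. Itga1, an integrin, was instead seen on both sides, in 38 of 105 cells. Cxcr6, a chemokine receptor of resident lymphocytes, was seen in 17 cells and Gzma in 61, and no cell held both. Eomes was seen in 33 cells, none of them with Cxcr6. Il7r, the interleukin 7 receptor, shared 5 cells with Gzma, against 20 with Il7r alone. Tmem176b shared 3, against 21 alone. By contrast Prf1 shared 48 of its 62 cells with Gzma, Gzmb 41 of its 48, and Klra8 22 of its 25. The Gzma-Cxcr6 gap rests on 46 Cxcr6 UMIs over all NK cells, and free of mixed barcodes it was the same: 0 of 52 cells with at least 5 Gzma UMIs and 17 of 47 with fewer.

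**Figure D3:**
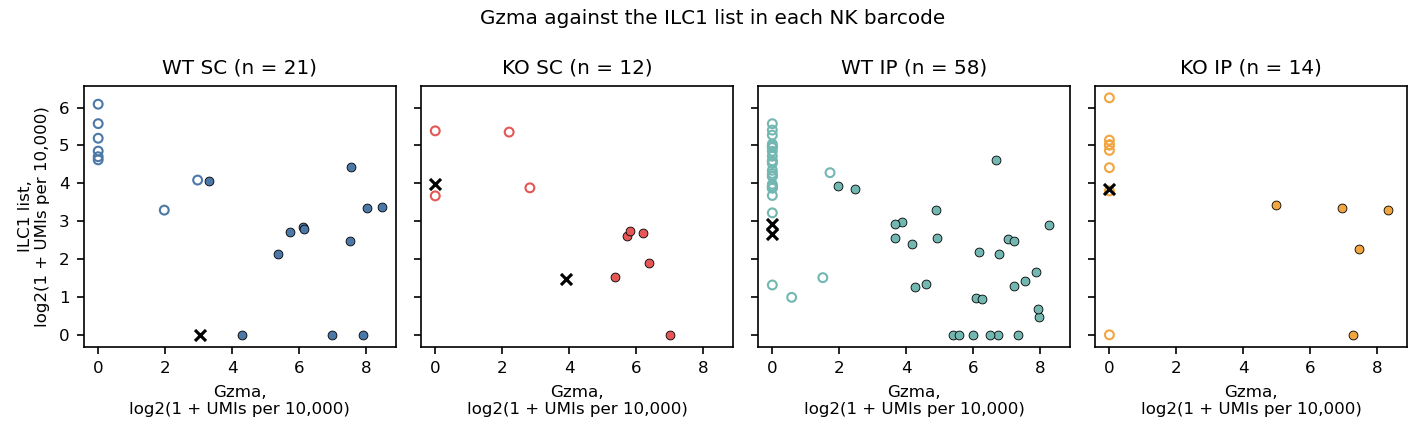
Gzma level (horizontal axis) and summed level of 14 ILC1 genes (vertical axis), both as depth-scaled UMIs on a log2 scale, in each of the 105 NK cells, by library. Filled points have at least 5 Gzma UMIs, open points fewer, and crosses mark mixed barcodes; 39 of the 44 cells with at least 10 ILC1 UMIs have under 5 Gzma UMIs.

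The ILC1 list, taken as a sum, behaved alike. Among 99 unmixed cells its median was 407 CPM in the 52 cells with at least 5 Gzma UMIs and 2284 CPM in the 47 with fewer. A list of genes of early NK maturation stood at 1703 and 4917 CPM. A list of late maturation, in contrast, stood at 5529 and 2566 CPM. Of the 44 cells with at least 10 ILC1 UMIs, 39 had under 5 Gzma UMIs. The split was made on Gzma after its counts were known, and all genes come from the same cells, so these figures are a description.

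Several genes kept their side in every library, here counted over the 99 unmixed cells. Of 1712 genes with at least 100 UMIs, 183 were higher in the Gzma cells of all 4 libraries and 195 were lower in all 4. Some genes would fall on the same side in all 4 without any difference, and their share was not estimated. Prf1 was at 865, 650, 724 and 584 CPM in the Gzma cells of WT SC, KO SC, WT IP and KO IP AT and at 164, 30.8, 58.7 and 138 CPM in the rest. Gzmb (granzyme B) was at 692, 350, 679 and 321 CPM against 89.6, 30.8, 196 and 17.3 CPM. Klra7 (Ly49G2, inhibitory) and Spn (CD43, a marker of mature NK cells) were also among those on the Gzma side.

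On the other side stood Tmem176b, at 329, 185, 145 and 311 CPM in cells with under 5 Gzma UMIs against 9.10, 0, 11.1 and 0 CPM. Inpp4b, a lipid phosphatase, was at 613, 370, 497 and 847 CPM against 118, 0, 107 and 0 CPM. Rora, a nuclear receptor of innate lymphoid cells, was at 642, 863, 458 and 899 CPM against 300.3, 100, 133 and 263 CPM. Tox, Gpr183, Emb and Ikzf2 were lower in the Gzma cells of all 4 libraries as well. Tbx21 was shared by both sides, with UMIs in 43 of 52 and 41 of 47 cells. Irf8 was seen in 48 and 23, and Xcl1 in 22 and 36.

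The Ly49 receptors were unevenly used from cell to cell. Of 11 Klra genes in the files, 30 NK cells had none, 26 had 1, 5 had 2 and 44 had 3 or more, up to 7. Klra9 was seen in 46 cells, Klra4 and Klra1 in 38 each, Klra7 in 33, Klra3 in 26 and Klra8 in 25, while Klra2 and Klra6 were at 0 UMIs. At the transcript ends, Klra9 shared 70.2% of its 31-base stretches with other genes, Klra3 61.1% and Klra7 40.4%, against 9.26% for Klra4. For these genes, several receptors in a cell and divided reads of 1 receptor cannot be told apart.

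Cycling cells were found in WT libraries. At least 50 UMIs of 21 proliferation genes were seen in 1 of 21 NK cells of WT SC AT (4.76%) and 6 of 58 of WT IP AT (10.3%). None was seen in 12 cells of KO SC or 14 of KO IP AT, which allows shares of up to 25% and 21.4%. At these numbers a difference was not detectable.

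The same genes were then compared in sums over NK cells. A gene with at least 20 UMIs in a pair of libraries was compared, and it was called higher or lower where its CPM differed at least 2-fold and the exact counting interval of the ratio left out 0 on the log2 scale. In SC AT 154 of 2533 genes were called higher in KO (6.08%) and 153 lower (6.04%). In IP AT 311 of 4845 were called higher (6.42%) and 280 lower (5.78%). The medians of all genes were 0.02 and -0.00 on the log2 scale. Among the genes called higher in KO SC AT, 60 of 154 (39.0%) drew at least 50% of their UMIs from a single NK cell, and 65 from mixed barcodes. Among those called lower the numbers were 14 of 153 (9.15%) and 8, so the genes called higher in KO SC AT rested on fewer cells.

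Agreement of both depots was rare. Of 1690 genes with at least 30 UMIs in each pair, 12 were called higher in KO in both (0.71%) and 7 lower in both (0.414%). Those lower were Adss, Gzmb, Icam1, Lsm14a, Mpp7, Pcna and Stmn1. Those higher included Ccr2, Cd74, Ext1, Gpr183, Gpx1, H2-Aa, Jmy, Klra8, Ldlrad4, Ssbp2 and Tox. Each was set against 4 other ways of counting: without mixed barcodes, with Gzma cells alone, with each cell weighted equally, and without the cell that gave most of its UMIs in each library. Gzma cells alone are those with at least 5 Gzma UMIs. They keep the mixed barcodes that reached this, of WT SC and KO SC AT (16 and 31 Gzma UMIs). Gzmb and Mpp7 were called lower in both depots under all 4, and none of the 12 genes was called higher in both depots under all 4. Parp8, which was not among the 12 and is named after its calls had been seen, was called higher in both depots under each of the 4.

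Gzmb, which starts the death of target cells, was at 417 CPM in WT SC (83 UMIs, 13 of 21 cells) and 152 CPM in KO SC AT (16 UMIs, 6 of 12 cells). It was at 416 CPM in WT IP (234 UMIs, 23 of 58 cells) and 110 CPM in KO IP AT (12 UMIs, 6 of 14 cells). The WT libraries stood together and both KO libraries were below them. The log2 ratio of KO to WT was -1.42 (-2.33 to -0.68) in SC and -1.87 (-2.90 to -1.09) in IP AT.

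Mpp7, a scaffold protein of cell junctions, was at 438 CPM in WT SC and 66.4 CPM in KO SC AT, from 87 and 7 UMIs. In IP AT it was at 329 and 54.9 CPM, from 185 and 6 UMIs. Its log2 ratios were -2.63 (-4.08 to -1.62) and -2.47 (-4.05 to -1.44). It was seen in 4 of 12 and 3 of 14 KO cells, so few cells carry the KO values.

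Cd74 and H2-Aa, genes of MHC class II antigen presentation, had 100% and 98.3% of their KO IP UMIs in 1 cell. Cd74 was at 40.2, 502, 92.5 and 4836 CPM in WT SC, KO SC, WT IP and KO IP AT, and without mixed barcodes its log2 ratio in IP AT was -4.20. Klra8, one of the rule genes, had ratios of 2.18 (1.47 to 2.97) and 1.06 (0.49 to 1.58). In KO IP AT 73.2% of its UMIs were in 1 cell, and without the top cells the IP ratio was -0.29. Gpr183, an oxysterol receptor that guides lymphocytes, was at 131, 275, 55.1 and 238 CPM, with 76.9% of its KO IP UMIs in 1 cell.

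**Figure D4:**
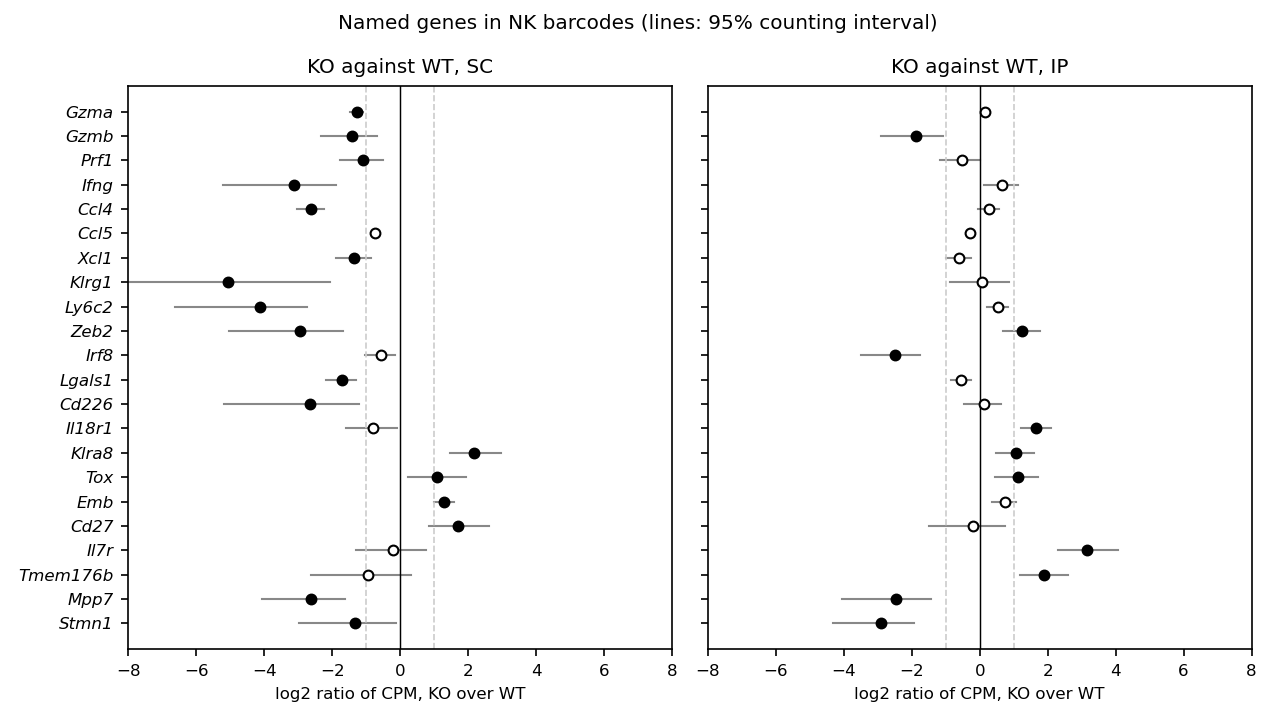
Log2 ratio of KO to WT for NK genes named in the text, in SC and IP AT, with 95% counting intervals cut at -8 and 8. Filled points are called genes and dashed lines mark 2-fold; Gzmb lies left of -1 in both depots, at -1.42 and -1.87, and Gzma at -1.28 in SC and 0.17 in IP AT.

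Gzma was called lower in KO SC AT and not in IP AT. It was at 6855 CPM in WT and 2816 CPM in KO SC AT (log2 ratio -1.28, -1.47 to -1.10). The call held under the 4 ways of counting, but Gzma cells alone are chosen by Gzma itself and are no check of it. Among unmixed Gzma cells, Gzma was at 12213 CPM in WT SC and 6478 CPM in KO SC AT, less than 2-fold apart. Over all NK cells of IP AT it was at 4639 and 5211 CPM and was not called (0.17, 0.03 to 0.30). Prf1 was called lower in SC AT (573 and 265 CPM, -1.09, -1.76 to -0.50) but 53.6% of its KO UMIs were in 1 cell, and the call was lost without mixed barcodes, with Gzma cells alone and with equal weights. In IP AT Prf1 was at 375 and 256 CPM (-0.53, -1.18 to 0.02). Nkg7 was at 1891 and 1318 CPM in SC AT and at 2070 and 1353 CPM in IP AT, with ratios of -0.52 and -0.61, under the 2-fold line in both. Of 23 genes of granules and killing, 15 were compared in SC AT, 5 were called lower (Gzma, Gzmb, Prf1, Ctsd and Rab27a) and 1 higher (Lamp2), with a median of -0.67, against 6.04% and 6.08% of all genes. Without mixed barcodes 13 were compared in SC AT, 3 were called lower and none higher, with a median of -0.67. In IP AT 18 were compared, 2 were called lower (Gzmb and Cma1, a chymase) and none higher, with a median of -0.17, against 5.78% and 6.42% of all genes.

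Of the cytokines and chemokines, 4 were called lower in KO SC AT and none in IP AT. Whether the ratio of KO to WT differed between depots was not tested, here or for any gene below. Ifng (interferon gamma) was at 372 CPM in WT SC AT, from 74 UMIs in 14 cells, and 37.9 CPM in KO SC AT, from 4 UMIs in 2 cells. It was at 276 CPM in WT IP and 430 CPM in KO IP AT. KO SC AT was the lowest of the 4 libraries. The log2 ratio in SC AT was -3.13 (-5.21 to -1.88), called under all 4 ways of counting, and in IP AT 0.65 (0.14 to 1.12), not called.

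Ccl4, a chemokine for T cells and monocytes, was at 3415, 550, 845 and 1015 CPM in WT SC, KO SC, WT IP and KO IP AT. WT SC AT was the highest, with 49.2% of the UMIs in 1 cell, and in KO SC AT 89.7% were in 1. The SC ratio was -2.62 (-3.05 to -2.25) and held under all 4 ways of counting. Ccl3, its neighbour in function, was at 694, 237, 116 and 219 CPM, and Xcl1 at 996, 389, 1065 and 695 CPM. The SC ratios were -1.53 and -1.34, and both calls were lost with Gzma cells alone. Ccl5 was at 14967, 8978, 9593 and 7844 CPM and was not called in either depot (-0.74 and -0.29). Of the 15 genes of this list 7 were compared in SC AT and 4 were called lower, with a median of -1.34, against 6.04% of all genes called lower. In IP AT 8 were compared and none was called, with a median of 0.33.

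Late maturation genes were called lower in KO SC AT more often than the background. Of 15 genes, 10 were compared there, 6 were called lower in KO and none higher, against 6.04% of all genes called lower, and the median was -1.42. Without mixed barcodes 6 of 10 were called lower (median -1.27). With Gzma cells alone, mixed barcodes among them included, 7 of 10 were called lower (-1.19). In IP AT 13 were compared, 3 were called lower and 1 higher, against 5.78% and 6.42% of all genes, with a median of -0.39. Of its 6 genes called lower in SC AT, Emp3 stands in no other list. Gzmb is also in the granule list, Klrg1 in the inhibitory receptors and the ILC2 list, Zeb2 in the transcription factors, Ly6c2 in the homing and monocyte lists and Lgals1 in the actin list, so these counts are not independent.

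Among its members, Ly6c2, a surface protein of mature NK cells that monocytes also carry, was at 573 CPM in WT SC AT (114 UMIs, 12 cells) and 28.4 CPM in KO SC AT (3 UMIs, 1 cell). In IP AT it was at 694 and 1006 CPM. The SC ratio was -4.12 (-6.63 to -2.75). The monocyte and macrophage list, most of it Ly6c2, accordingly summed to 724, 56.9, 888 and 1280 CPM, and no NK cell held a C1q UMI.

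Klrg1, an inhibitory receptor of terminal NK cells, had 31 UMIs in 10 cells of WT SC AT and 0 in KO SC AT, at least 5.48-fold lower taking 3 counts as the limit. It was at 133 CPM in WT IP and 137 CPM in KO IP AT. Zeb2, a transcription factor of terminal maturation, was at 327 and 37.9 CPM in SC AT (-2.95, -5.03 to -1.68) and at 165 and 393 CPM in IP AT (1.26, 0.69 to 1.79). It was thus called lower in KO SC and higher in KO IP AT, the latter call being lost without the top cells. Lgals1 (galectin 1) was at 1660 and 502 CPM in SC AT (-1.71) and at 1466 and 1006 CPM in IP AT (-0.54). Emp3 was at 438 and 161 CPM in SC AT (-1.41).

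Some genes of earlier stages were called higher in KO SC AT. Cd27, which marks less mature NK cells, was at 95.6 CPM in WT SC and 313 CPM in KO SC AT, from 19 and 33 UMIs in 8 cells each. Its ratio was 1.70 (0.85 to 2.61). Emb (embigin) was at 925 and 2266 CPM (1.29, 1.01 to 1.58). Ccr2, a chemokine receptor of the homing list and not of the early list, was at 111 and 483 CPM (2.11, 1.38 to 2.92). These 3 calls held under the 4 ways of counting. In IP AT Cd27 was at 99.6 and 82.3 CPM (-0.21, -1.48 to 0.75). Thy1 had the opposite direction in SC AT, with 23 UMIs in WT and 0 in KO, at least 4.07-fold lower. Of the early list 11 were compared in SC AT, 3 higher and 2 lower, with a median of 0.36, and 12 in IP AT, 2 higher and none lower, with a median of 0.24. Over all genes 6.08% were higher and 6.04% lower in SC AT, and 6.42% and 5.78% in IP AT.

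**Figure D5:**
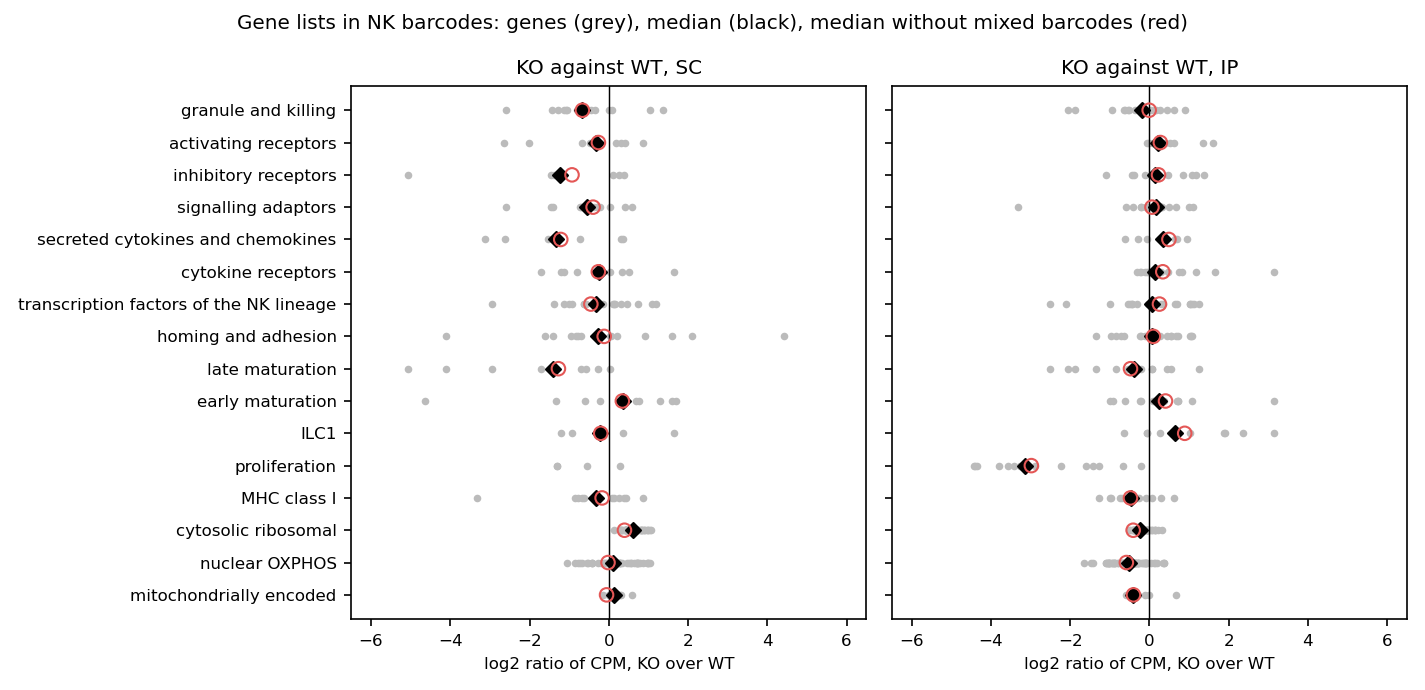
Log2 ratio of KO to WT for each compared gene (grey points) of the NK gene lists in SC and IP AT, with the median of each list (black diamonds) and the median without mixed barcodes (red circles). The late maturation list has its median at -1.42 in SC and -0.39 in IP AT, and the cytokine and chemokine list at -1.34 and 0.33.

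The most abundant receptors and adaptors were not called. Klrd1 (CD94) was at 679, 806, 719 and 786 CPM in WT SC, KO SC, WT IP and KO IP AT, and Klrk1 at 593, 474, 603 and 923 CPM. Neither was called in KO against WT. The adaptor Tyrobp was at 2127, 1650, 1375 and 1335 CPM (-0.36 and -0.04). Of the activating receptors, 9 were compared in SC AT and 2 were called lower, against 6.04% of all genes: Cd226 (DNAM-1, 206 and 28.4 CPM) and Cd244a (2B4, 131 and 28.4 CPM). In IP AT 11 were compared and 2 were called higher, against 6.42% of all genes: Cd244a (72.9 and 183 CPM) and Klri2 (72.9 and 219 CPM). Cd244a was therefore called in opposite directions, and with Gzma cells alone in neither.

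Of the inhibitory receptors 7 were compared in SC AT and 4 were called lower, with a median of -1.23, against 6.04% of all genes called lower. Without mixed barcodes 6 were compared and 3 were called lower, with a median of -0.93. They were Klrg1, Klrc1 (387 and 161 CPM), Klrb1b (357 and 133 CPM) and Klra9 (116 and 37.9 CPM). In IP AT 11 were compared and 3 were called higher, against 6.42% of all genes: Klra1, Klra3 and Klra7, with a median over the list of 0.14. Klra7 was at 139 and 311 CPM in IP AT, with 76.5% of its KO UMIs in 1 cell. For Klra3 that share was 76.2%. Klrc1 shared 77.5% of its end stretches with Klrc2 and Klrc3.

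Among cytokine receptors, Il2rb, the chain that receives interleukins 2 and 15, was at 961, 976, 623 and 576 CPM and was not called in KO against WT. Il18rap was called lower in KO SC AT (538 and 161 CPM, -1.70, -2.57 to -0.99). Il18r1, its partner, was called higher in KO IP AT (208 and 658 CPM, 1.67, 1.22 to 2.10), a call that held under all 4 ways of counting. Il7r was at 33.8 CPM in WT IP (19 UMIs, 9 of 58 cells) and 302 CPM in KO IP AT (33 UMIs, 6 of 14 cells), with a ratio of 3.14 (2.30 to 4.05). With Gzma cells alone that call was lost. Only 5 NK cells over all libraries held both Il7r and Gzma, so that setting leaves little Il7r to compare.

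Genes of the ILC1 list were called higher in KO IP AT more often than the background. Of 14 genes, 12 were compared in IP AT, 5 were called higher in KO and none lower, against 6.42% of all genes called higher, with a median of 0.65. They were Il7r, Tmem176a (55.1 and 201 CPM), Tmem176b (76.5 and 283 CPM), Cd200r1 (21.3 and 110 CPM) and Rora (277 and 558 CPM, 73.8% of the KO UMIs in 1 cell). In SC AT 6 were compared, 1 was called higher and 1 lower, against 6.08% and 6.04% of all genes, with a median of -0.22. In KO IP AT 47.0% of the UMIs of the list were in 1 cell. Cells with at least 10 ILC1 UMIs were 8 of 21, 4 of 12, 24 of 58 and 8 of 14 in WT SC, KO SC, WT IP and KO IP AT, shares of 38.1%, 33.3%, 41.4% and 57.1% whose intervals overlapped.

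Transcription factors were called in both directions. Irf8, needed for NK responses to virus, was at 835 and 559 CPM in SC AT (-0.57) and at 699 and 119 CPM in IP AT (-2.50, -3.48 to -1.77). KO IP AT was the lowest of the 4 libraries, with 13 UMIs in 5 of 14 cells, and the call held under all 4 ways of counting. Ikzf2 (Helios) was called lower in KO IP AT (97.8 and 18.3 CPM). Eomes was at 151, 161, 69.4 and 82.3 CPM and was not called in KO against WT. Tbx21 was at 332 and 161 CPM in SC AT (-1.01, -1.90 to -0.26), a call lost without mixed barcodes and with equal weights, and at 462 and 366 CPM in IP AT. Of 22 factors 20 were compared in each depot, 2 higher and 4 lower in SC AT and 5 higher and 2 lower in IP AT, with medians of -0.31 and 0.07. The shares over all genes were 6.08% higher and 6.04% lower in SC AT and 6.42% and 5.78% in IP AT.

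Of 25 homing and adhesion genes 17 were compared in SC AT, 3 were called higher (Ccr2 and Ccr7 among them) and 3 lower (Ly6c2, Itgb7 and Cd69), with a median of -0.26. In IP AT 21 were compared, 3 were called higher (Ccr2 and Itga2 among them) and none lower, with a median of 0.07. Ccr7, which guides cells to lymph nodes, had 2, 28, 0 and 0 UMIs in WT SC, KO SC, WT IP and KO IP AT, from 2 and 3 cells, and its SC call was lost without mixed barcodes. Of 21 signalling adaptors 16 were compared in SC AT and 3 were called lower, with a median of -0.55, and 20 in IP AT, with 1 higher, 1 lower and a median of 0.16. For both lists the shares over all genes were 6.08% higher and 6.04% lower in SC AT and 6.42% and 5.78% in IP AT.

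Proliferation genes were called lower in KO IP AT. Stmn1 was at 151, 56.9, 509 and 64.0 CPM, and Mki67, Birc5 and Pclaf had 52, 55 and 94 UMIs in WT IP and 0 in KO IP AT, at least 3.37-fold, 3.57-fold and 6.10-fold lower. Of 17 proliferation genes compared 14 were called lower, against 5.78% of all genes, with a median of -3.13, or -1.26 with genes at 0 set to their bound. These sums and the counts of cycling cells above come from the same cells and are 1 observation.

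The depots were compared within each genotype. In WT 343 of 5078 genes were called higher in IP than SC AT (6.75%) and 120 lower (2.36%). In KO 253 of 1970 were called higher (12.8%) and 159 lower (8.07%). Of 1255 genes with at least 30 UMIs in each pair, 3 were higher in both genotypes (0.239%), among them Lyst, a regulator of lytic granules, and 10 lower in both (0.797%), among them Ikzf2. These comparisons share their libraries with those of KO against WT.

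Lyst was at 85.5, 75.8, 237 and 823 CPM in WT SC, KO SC, WT IP and KO IP AT. The IP to SC ratio was 1.43 (0.74 to 2.29) in WT and 3.36 (2.40 to 4.69) in KO, and it was called in both under each way of counting but Gzma cells alone. Ikzf2 was at 367, 502, 97.8 and 18.3 CPM, with 69.9% of the WT SC UMIs in 1 cell.

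In WT mice Ccl3 and Ccl4 were called lower in IP than SC AT (-2.58 and -2.01), calls that held under all 4 ways of counting. Eomes was called lower too (-1.13, -1.84 to -0.38), seen in 8 of 21 and 12 of 58 cells. The late maturation list had 13 genes compared and none called. In KO mice Ly6c2 (4.93, 3.56 to 7.44) and Zeb2 (3.22, 1.91 to 5.31) were called higher in IP AT under all 4 ways of counting, Ifng (3.35, 2.05 to 5.44) under 3, and Irf8 was called lower (-2.19, -3.23 to -1.35) under 3. Emb and Cxcr4 were lower in KO IP AT as well (-1.47 and -1.59). The KO SC library that gave the low Ly6c2, Zeb2 and Ifng counts above enters these ratios too.

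Genes of oxidative phosphorylation and ribosomes are given last. Of 62 nuclear genes of oxidative phosphorylation 50 were compared in SC AT and none was called (median 0.10). In IP AT all 62 were compared, 8 were called lower and none higher, against 5.78% of all genes called lower, with a median of -0.52. The 49 cytosolic ribosomal genes had medians of 0.61 in SC and -0.23 in IP AT, with 2 called higher and none called lower in SC AT and none in IP AT. Over all genes 6.08% were called higher in SC AT. Apart from markers of other cell types, Cd27, Zeb2, Thy1, Cxcr6, Spn, Cd200r1, Tmem176a, Cd244a, Klra1, Klra6, Cxcr4, Mki67, Birc5, Ctsd, Rab27a, Lamp2, Ccr7, Itgb7, Itga1, Itga2 and Cd69 were named after their values had been seen.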

How the data were processed

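Single cells of SC and IP AT of 1 WT and 1 KO group were measured in 4 droplet libraries. The deposited values are UMI counts per gene and barcode, which per the file headers the authors made with Cell Ranger 7.0.0, and the submitters' processing notes name mm10 and STAR 2.6. Whether intronic reads were counted, and how cells were called, is not given in the sources used here. Per the labels cells were dissected from the tissue, yet the library protocol speaks of nuclei, so whether a barcode stands for a cell or a nucleus is not settled. The matrices list 32290 features, 5 of them reporter sequences, and the libraries held 10015201 to 15533961 UMIs.

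Barcodes were filtered and NK cells chosen by the rule given above, and UMIs were summed over the NK cells of each library. The members and the gene lists were chosen with earlier results of these data known. Ratios were taken of CPM after adding 0.5 UMI, for genes with at least 20 UMIs in the 2 libraries, with exact conditional binomial 95% intervals. Shares have exact Clopper-Pearson intervals. With 1 library per group no test was possible and no p-value is given. Genes were named if they were in the rule, among the 6 members of a list with most UMIs, called alike in both pairs, among the 5 in each direction of a pair whose interval lay farthest from 0, or among the 20 leading genes of NK cells, and exceptions are stated. The 38 lists held 631 genes, of which 7 symbols did not match. Mixed barcodes, Gzma cells alone, and removal of each gene's top cell were alternatives chosen after seeing the data, and the split at 5 Gzma UMIs was made with its counts known. Scanpy 1.11.5 with anndata 0.12.19, scipy 1.17.1 and numpy 2.4.6, pandas 2.3.3 and matplotlib 3.10.9 were run under Python 3.11.15. The ratios were tested on simulated sums that varied by counting error alone. The simulation had no spread between cells, so it does not cover genes with most UMIs in 1 cell. Promoters are RefSeq, GRCm38.p6, and gene positions GENCODE M21 on GRCm38. Some genes are not reported here.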

Additional observations from a re-analysis of the deposited data

Results flagged for a closer look

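For 2 gene lists the interval of the median, taken from the order of its genes, lay above 0 in SC and below 0 in IP AT, and 3 genes of the naming rule were called in opposite directions in KO against WT. Other ratios given above also had opposite signs, Zeb2 and Cd244a with opposite calls. The difference between depots was not tested in any of them. The median of the mitochondrially encoded genes was 0.14 in SC and -0.42 in IP AT, and without mixed barcodes -0.06 and -0.40, with the same sign. The median of the cytosolic ribosomal genes was 0.61 in SC and -0.23 in IP AT, and without mixed barcodes 0.40 and -0.41.

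Fn1 (fibronectin) had fitted ratios of 7.57 in SC and -3.57 in IP AT. It had 0 UMIs in WT SC and KO IP AT, and by the limit of 3 counts it was at least 31.4-fold higher in KO SC and at least 1.95-fold lower in KO IP AT. Of its UMIs 100% in KO SC and 76.7% in WT IP AT were in 1 cell.

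The heat shock gene Hspa1b had ratios of -1.95 in SC and 3.10 in IP AT, and Hspa1a had fitted ratios of -6.10 and 4.23. Hspa1a was at 0 UMIs in KO SC AT, at least 11.3-fold lower than in WT. In KO IP AT 99.1% of the Hspa1a and 90.4% of the Hspa1b UMIs were in 1 cell.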

How the results depend on the processing

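All 36 ratios of NK shares kept their direction and their side of 0 under 9 alternatives each, ranging from -2.09 to -1.76 and from -2.16 to -1.47 for KO against WT in SC and IP AT, and from 1.68 to 2.67 and from 1.43 to 3 for IP against SC in WT and KO mice. No paired analysis was possible because each group was 1 library and all replicate numbers were 1, and no replicate could be left out.

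Counts of called genes moved more. For KO against WT in SC AT, the 154 genes called higher became 84 without mixed barcodes, 50 with a minimum of 50 UMIs, 515 with no minimum, 94 without each gene's top cell and 270 at 1.5-fold, and the 153 called lower became 63 with a minimum of 50. In IP AT the 311 called higher became 131 with Gzma cells alone, 163 with a minimum of 50, 579 with none and 77 without the top cell, and the 280 called lower became 99 with Gzma cells alone and 148 with a minimum of 50. For IP against SC in WT mice, the 343 called higher became 163 without mixed barcodes, 212 with Gzma cells alone and 135 with a minimum of 50. The 120 called lower became 204 without cells over 1% haemoglobin, 181 without mixed barcodes, 72 with Gzma cells alone, 205 centred on the median, 49 with a minimum of 50, 218 with none, 37 without the top cell and 231 at 1.5-fold. In KO mice the 253 called higher became 109 with Gzma cells alone, 79 with a minimum of 50, 483 with none and 161 without the top cell, and the 159 called lower became 90, 53 and 370 under the first 3 of these. The minimum and the fold change how many genes can be called. For the other settings the cause was not tested.

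Of 2580 ratios of named genes under the alternatives 2499 had the sign of the reported value, as had 1328 of 1433 list medians. The 20 that reversed a called gene are grouped by setting. Without mixed barcodes, KO against WT in IP AT gave -0.39 for Cst3, -0.29 for Gpx1, -0.0031 for Hspa1b, -1.78 for Hspa1a and -4.20 for Cd74, and IP against SC in KO mice gave -5.96 for Cd74. Without the top cell the IP values were -0.52 for Cst3, -0.34 for Gpx1, -0.29 for Klra8 and -3.46 for Cd74, and -5.58 for Cd74 in IP against SC of KO mice. With Gzma cells alone, KO against WT in IP AT gave -0.55 for Cst3, -0.92 for Gpx1 and -0.44 for Cdk14. In SC AT that setting gave -0.94 for Pak1, -0.12 for Plxnc1 and 0.12 for Hspa1b, and IP against SC in WT mice gave 0.30 for Odc1. Without cells holding a Cd3 UMI, SC AT gave -0.39 for Pak1 and -0.17 for Plxnc1. With 12 and 14 NK cells in the KO libraries, 1 cell can set a value.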
